A study of Mus musculus with 12 samples.

Results

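The BCL-2 family genes Bcl2, Bcl2l1, Mcl1, Bcl2a1b, Bcl2a1d, Bax, Bak1, Bcl2l11, Bbc3 and Pmaip1 were followed in macrophages of the ischemic mouse calf. These 10 genes were taken by symbol, matched to the Ensembl gene IDs of the count table, out of 55414 IDs in all. The mice were male C57BL6J wild type animals of 8 to 12 weeks, and every animal had hind limb ischemia by ligation of the femoral artery, so there was no uninjured group. The macrophage RNA was collected on day 1, 2, 4 or 7 after injury (dpi, days post injury), with 3 libraries at each time point and 12 in all. The study defined its macrophages as tissue CD45+ cells that stained for CD11b, F4/80 and CD64. Neither the labels nor the methods state if a library stands for a single mouse or for pooled mice, so the P values measure the spread between libraries, which may be partly technical. Library numbers within a time point are names and carry no order.

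The BCL-2 family controls whether the outer membrane of the mitochondrion is opened during apoptosis. Prosurvival members (BCL-2, BCL-XL encoded by Bcl2l1, MCL-1 and the A1 proteins encoded by the Bcl2a1 genes) hold the pore-forming effectors BAX and BAK in check, and BH3-only members (BIM encoded by Bcl2l11, PUMA encoded by Bbc3 and NOXA encoded by Pmaip1) bind the prosurvival members or the effectors and so favour that opening, through which cytochrome c leaves. In myeloid cells MCL-1 and A1 are short-lived proteins whose genes respond to cytokines and inflammatory signals, and macrophages depend on survival signals through receptors such as that for CSF1. Much of this control acts on protein stability and binding, which RNA-seq does not measure.

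The libraries held 19528316 to 33599472 counts each, of which a single gene with no symbol in the annotation used took 40.3% to 55.7% at 1 to 4 dpi and 14.8% to 30.1% at 7 dpi. Genes of mitochondrial DNA took 4.77% to 18.9% of the remaining counts. Levels are given as CPM, read counts relative to the library total (in units of a millionth), on totals scaled by TMM, a method that takes most genes as unchanged. All 8 macrophage markers were detected at every time point (Adgre1, the gene of F4/80, at 245 to 779 CPM), but their levels were not steady. Of the 8, 4 were higher at 7 than at 1 dpi (FDR under 0.05), namely Adgre1, Csf1r, Lyz2 and Mertk. Another 2 were lower, and over all genes tested the shares were 25.0% higher and 23.3% lower. Fcgr1, the gene of CD64, was lower (138, 118 and 164 against 525, 374 and 401 CPM). Itgam, the gene of CD11b, was lower as well (44.3, 31.1 and 32.2 against 182, 191 and 169 CPM). In these bulk samples, fewer cells of a type and less RNA per cell cannot be told apart.

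All 10 genes had enough counts to be tested, and all 10 differed between time points in the test over the 4 groups (edgeR quasi-likelihood test, FDR of 0.00828 or less), which 61.5% of the 14310 genes tested also passed. No direction was shared by the family. Bcl2a1b, Bcl2a1d, Bcl2l11 and Pmaip1 fell between 1 and 2 dpi. Bcl2, Bcl2l1 and Bax fell between 2 and 4 dpi, and Bcl2, Bcl2a1d and Bbc3 rose between 4 and 7 dpi. At 7 dpi Bcl2l1, Mcl1, Bcl2a1d, Bax and Bak1 were below and Bcl2 and Bbc3 above their level at 1 dpi. Of these, the calls of Mcl1 and Bcl2a1d were lost in some other fits. The plot of CPM by library shows the 10 courses side by side.

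**Figure D1:**
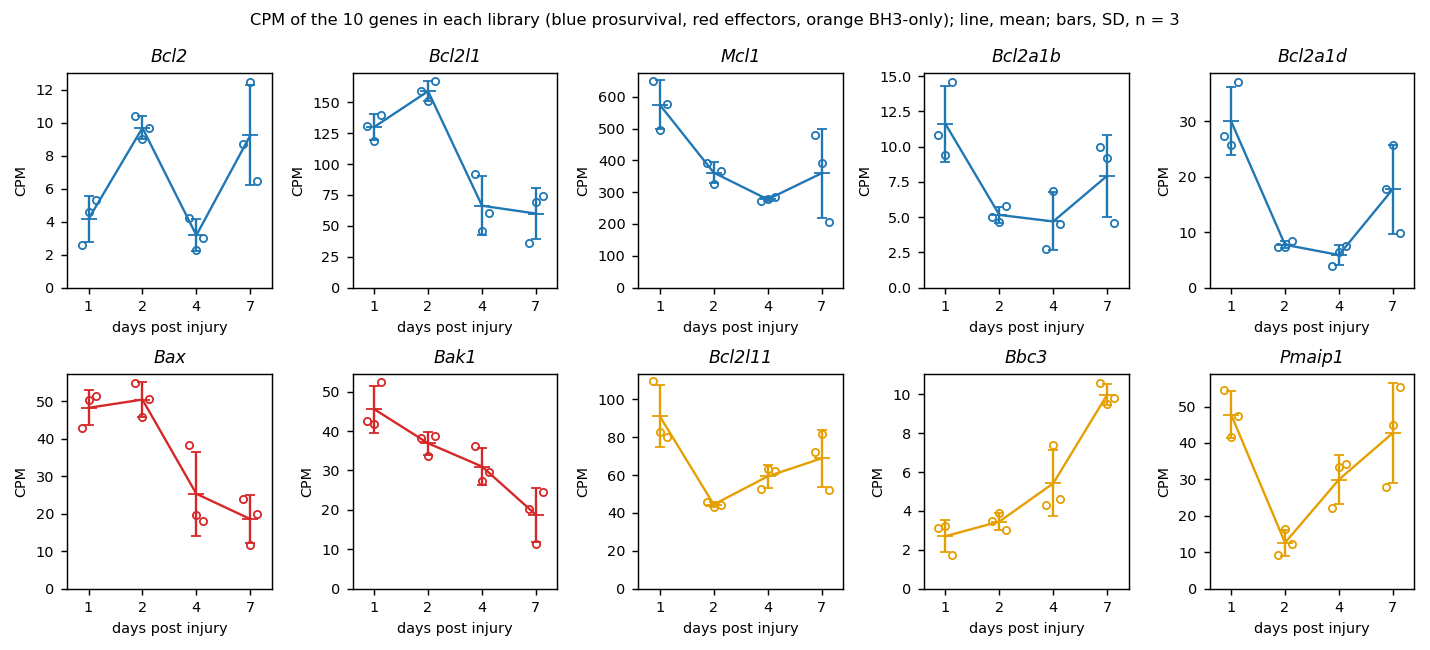
CPM (y axis, from 0, a separate scale for each gene) of the 10 genes against days post injury (x axis, time points evenly spaced), with open circles for the 3 libraries of a time point, a line through the means and bars for the SD (n = 3), in blue for prosurvival, red for effector and orange for BH3-only genes. Bcl2 is high at 2 and 7 dpi, Pmaip1 and Bcl2a1d are high at 1 dpi and low at 2 dpi, Bbc3 is highest at 7 dpi, and the spread between libraries is widest at 7 dpi for genes such as Mcl1 and Bcl2a1d.

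Levels of different genes were compared per length, as CPM per kilobase of exonic sequence. Mcl1 stood above the other 9 genes at every time point, at 168 ± 22.5 CPM per kb on day 1, 106 ± 9.39 on day 2, 81.1 ± 1.86 on day 4 and 105 ± 40.7 on day 7 (SD, n = 3). Its libraries did not overlap with those of the next gene on any day. Bcl2, the gene that gave the family its name, was the lowest of the 10 at every time point, between 0.347 ± 0.107 CPM per kb at 4 dpi and 1.06 ± 0.0741 at 2 dpi, and Bbc3 was next to the lowest on each day. At 1 dpi the order after Mcl1 was Bcl2a1d (34.8 ± 7.10), Bax (30.6 ± 2.93) and Bcl2l1 (28.3 ± 2.30), whose libraries overlapped from each to the next. By 2 dpi Bcl2l1 (34.7 ± 1.80) and Bax (32.0 ± 2.91) were next to Mcl1 with overlapping libraries, and Bcl2a1d had dropped to 8.95 ± 0.773 CPM per kb, behind Bak1 (15.3 ± 1.19). At 7 dpi the genes from Bcl2a1d (20.6 ± 9.31) through Pmaip1, Bcl2l1, Bax, Bcl2a1b, Bcl2l11 and Bak1 to Bbc3 (4.71 ± 0.270) each overlapped with the next in the order. Of the summed level per length of the 5 prosurvival genes, Mcl1 made up 68.4% ± 3.69 at 1 dpi, 67.4% ± 1.75 a day later, 74.8% ± 1.07 at 4 dpi and 69.3% ± 6.91 at 7 dpi (SD, n = 3). The order below Mcl1 rests on the exonic lengths used. By CPM alone, Bbc3 was below Bcl2 at 1 dpi (2.7 ± 0.82 against 4.17 ± 1.41) and at 2 dpi (3.45 ± 0.436 against 9.68 ± 0.678). At 1 dpi Bcl2a1d (30.0 ± 6.13 CPM) was then below Bcl2l1 (130 ± 10.5) and Bax (48.2 ± 4.62).

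Mcl1 (ENSMUSG00000038612) encodes the short-lived prosurvival protein MCL-1. It was measured at 651, 497 and 576 CPM in the 3 libraries at 1 dpi, at 391, 327 and 366 CPM at 2 dpi, at 271, 277 and 284 CPM at 4 dpi and at 480, 391 and 207 CPM at 7 dpi. The 3 libraries at 1 dpi were above those at 2, 4 and 7 dpi, those at 4 dpi lay close together, and at 7 dpi library 3 was below and libraries 1 and 2 above all 4 dpi libraries. Mcl1 was lower at 7 than at 1 dpi (log2FC = -0.68, SE 0.24, FDR = 0.0301), and the difference between 1 and 2 dpi missed the threshold (log2FC = -0.67, SE 0.24, FDR = 0.0833). The call from 1 to 7 dpi was lost without 1 dpi library 1 (log2FC = -0.51, FDR = 0.144), 2 (-0.71, 0.0527) or 3 (-0.61, 0.0924), without 2 dpi library 3 (-0.61, 0.0653), without 7 dpi library 3 (-0.38, 0.105) and under 3 other settings, with FDR from 0.00656 to 0.144 over all 23 alternatives. Between 1 and 2 dpi a call was gained without 7 dpi library 1 (FDR = 0.0492) or 3 (FDR = 0.0134), with DESeq2 (adjusted P = 0.0336) and with the 6 libraries compared (FDR = 0.00222), among alternatives reaching an FDR of 0.25. From 4 to 7 dpi a gain (log2FC = 0.66, FDR = 0.0141) was called only without 7 dpi library 3, among FDR values up to 0.783.

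Bcl2l1 (ENSMUSG00000007659), the gene of the prosurvival protein BCL-XL, was high through 2 dpi and lower from 4 dpi on. Its CPM was 131, 119 and 140 at 1 dpi, 159, 151 and 167 at 2 dpi, 92.3, 45.8 and 60.7 at 4 dpi and 36.5, 69.3 and 74.0 at 7 dpi. Every library at 4 and 7 dpi was below every library at 1 and 2 dpi. Bcl2l1 fell between 2 and 4 dpi (log2FC = -1.26, SE 0.26, FDR = 0.00318) and was lower at 7 than at 1 dpi (log2FC = -1.12, SE 0.26, FDR = 0.00223), both calls being kept under all 23 alternatives.

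Bcl2 (ENSMUSG00000057329), the founding prosurvival gene, was called in all 3 transitions, in turns of direction. It measured 2.59, 4.60 and 5.31 CPM at 1 dpi, 10.4, 9.01 and 9.68 CPM at 2 dpi, 4.23, 2.31 and 2.99 CPM at 4 dpi and 8.72, 12.5 and 6.50 CPM at 7 dpi. The libraries at 2 and 7 dpi were all above those at 1 and 4 dpi. Bcl2 rose between 1 and 2 dpi (log2FC = 1.2, SE 0.31, FDR = 0.0170), fell between 2 and 4 dpi (log2FC = -1.60, SE 0.31, FDR = 0.00205) and rose between 4 and 7 dpi (log2FC = 1.53, SE 0.31, FDR = 0.00309). At 7 dpi it was above its level at 1 dpi (log2FC = 1.13, SE 0.31, FDR = 0.00635). The counts behind these values were low, 260 in all at 1 dpi and 959 at 7 dpi. The rise from 1 to 2 dpi was not called without 1 dpi library 1 (log2FC = 0.98, FDR = 0.068), 2 dpi library 1 (1.15, 0.0616) or 2 dpi library 3 (1.21, 0.0512), with FDR from 0.00188 to 0.068 over the 23 alternatives, which all kept the other 3 calls.

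The A1 genes lie on chromosome 9 as near-identical copies, so their sequences bear on what the counts can tell apart. The coding sequences of Bcl2a1a, Bcl2a1b and Bcl2a1d, the longest open reading frames of the GENCODE M21 transcripts, had 519 bases each including the stop codon. Bcl2a1b differed from Bcl2a1d at 6 of them (98.8% identity), from Bcl2a1a at 11 (97.9%), and Bcl2a1a from Bcl2a1d at 7 (98.7%). The first 60 coding bases hold 6 of the 12 positions at which the 3 copies differ. They are shown to let the copies be told apart, with those 6 positions in capitals, for chr9:88957051-88957110 (plus strand), chr9:89199360-89199419 (plus strand) and chr9:88731660-88731719 (minus strand) of GRCm38.
Bcl2a1a: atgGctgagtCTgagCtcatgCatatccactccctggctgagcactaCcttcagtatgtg
Bcl2a1b: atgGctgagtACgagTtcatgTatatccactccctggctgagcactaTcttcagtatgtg
Bcl2a1d: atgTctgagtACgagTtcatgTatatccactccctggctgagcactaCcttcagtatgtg
Of all stretches of 150 bases in each transcript, 14.2% for Bcl2a1b, 30.3% for Bcl2a1d and 28.2% for Bcl2a1a were also present without a mismatch in another of the 3. A read from such a stretch cannot be given to a single copy, and how the authors' counting treated it is not given in the sources used here. In the GRCm38 annotation, 49.08% of the exonic bases of Bcl2a1b are also exonic in a same-strand gene model, Gm29094, which had 0 counts, so the level of Bcl2a1b relative to the other copies is uncertain.

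Bcl2a1d (ENSMUSG00000099974) had the widest range of time point means among the 10 genes. Its CPM was 27.3, 25.7 and 37.0 at 1 dpi, 7.36, 7.32 and 8.49 at 2 dpi, 3.84, 6.35 and 7.46 at 4 dpi and 17.7, 25.8 and 9.78 at 7 dpi. The libraries at 1 and 7 dpi were all above those at 2 and 4 dpi, and those at 7 dpi overlapped with those at 1 dpi. Bcl2a1d fell between 1 and 2 dpi (log2FC = -1.96, SE 0.31, FDR = 0.00064) and rose between 4 and 7 dpi (log2FC = 1.60, SE 0.31, FDR = 0.0024), as in all 22 alternatives. The lower level at 7 than at 1 dpi (log2FC = -0.76, SE 0.30, FDR = 0.0454) was lost in 13 of the 22, with FDR up to 0.223. Those were 7 of the 12 fits that left out a library, namely 1 dpi library 1 (log2FC = -0.76, FDR = 0.081), 2 (-0.80, 0.0677) or 3 (-0.51, 0.223), 2 dpi library 1 (-0.75, 0.0575) or 3 (-0.70, 0.0759) and 7 dpi library 1 (-0.75, 0.0946) or 3 (-0.45, 0.182), and 6 other settings.

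Bcl2a1b (ENSMUSG00000089929) had lower counts and a course like that of Bcl2a1d, with 10.8, 9.4 and 14.6 CPM at 1 dpi, 5.00, 4.68 and 5.77 at 2 dpi, 2.75, 6.84 and 4.48 at 4 dpi and 10.0, 9.18 and 4.61 at 7 dpi. All libraries at 1 dpi were above those at 2 dpi, and 7 dpi library 3 lay among those at 4 dpi. Bcl2a1b fell between 1 and 2 dpi (log2FC = -1.17, SE 0.33, FDR = 0.0287), and from 4 to 7 dpi the difference missed the threshold (log2FC = 0.77, SE 0.33, FDR = 0.0964). The fall was not called without 1 dpi library 1 (log2FC = -1.21, FDR = 0.0585) or 3 (-0.95, 0.132) or without 2 dpi library 1 (-1.15, 0.092), 2 (-1.10, 0.107) or 3 (-1.25, 0.0728), with FDR from 0.00188 to 0.132 over 22 alternatives. From 4 to 7 dpi a rise was called without 4 dpi library 2 (log2FC = 1.12, FDR = 0.0325) or 7 dpi library 3 (1.05, 0.0217), among FDR values up to 0.534. The third copy, Bcl2a1a, was also lower at 2 than at 1 dpi (8.41, 9.11 and 13.4 against 2.10, 1.89 and 1.11 CPM, log2FC = -2.60, SE 0.32, FDR = 8.94e-05) and rose between 4 and 7 dpi (log2FC = 1.53, SE 0.32, FDR = 0.00351). With the Bcl2a1 copies summed to a single feature, where a read divided among them makes no difference, the fall from 1 to 2 dpi (log2FC = -1.83, SE 0.27, FDR = 0.00037) and the rise from 4 to 7 dpi (log2FC = 1.32, SE 0.27, FDR = 0.00325) were called, and the sum was lower at 7 than at 1 dpi (log2FC = -0.79, SE 0.26, FDR = 0.0207).

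The A1 genes are also expressed in neutrophils, so neutrophil marker genes are given beside them. The summed level of 12 neutrophil markers was 143 to 235 CPM at 1 dpi, 57.4 to 68.2 at 2 dpi, 64.2 to 82.3 at 4 dpi and 43.7 to 53.6 at 7 dpi. Of the 6 that could be tested, 5 fell between 1 and 2 dpi, in the same interval as Bcl2a1b and Bcl2a1d. Over all genes tested 5.60% fell in that interval. At 1 dpi the sum was highest in library 1 (235 CPM against 143 and 154), where S100a8 had 38.7 CPM against 16.8 and 10.6. Mmp8 was highest in library 3 (51.2, 45.9 and 83.6 CPM), the library in which Bcl2a1d was highest as well, but no other marker was. S100a9 (18.1, 8.29 and 5.45 CPM), Cxcr2 (26.9, 11.1 and 6.46), Il1r2 (29.5, 12.6 and 4.98) and Csf3r (61.3, 46.0 and 42.7) were lowest in library 3. Most of the sum was Csf3r and Mmp8 at 2 dpi (22.1, 27.4 and 23.3 CPM and 28.2, 28.4 and 28.3 CPM) and at 4 dpi (41.2, 65.9 and 58.0 CPM and 20.5, 15.8 and 15.8 CPM). At 4 dpi S100a9 had 0 counts and S100a8 at most 1.09 CPM. At 7 dpi 6 of the 12 markers had 0 counts, among them S100a8, Retnlg and Ly6g, and S100a9 had at most 0.0565 CPM, in the libraries in which Bcl2a1d was again at 9.78 to 25.8 CPM. Csf3r, at 41.4, 51.4 and 48.8 CPM, made up nearly all of the sum at 7 dpi, where its level missed the threshold against 1 dpi (log2FC = -0.08, SE 0.20, FDR = 0.765). The part of neutrophil RNA in the level at 1 dpi was not tested.

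**Figure D2:**
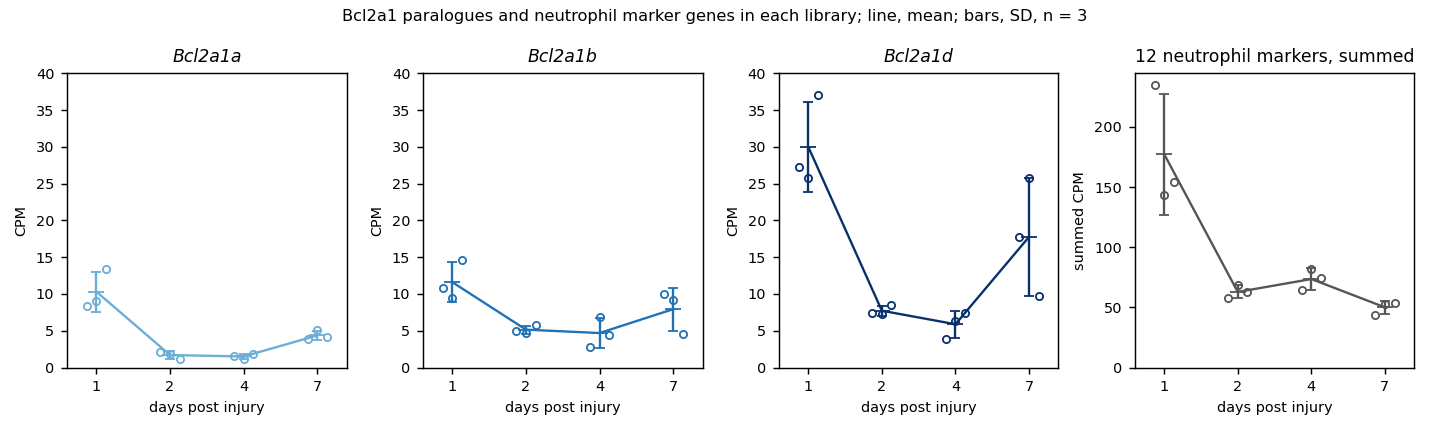
CPM of Bcl2a1a, Bcl2a1b and Bcl2a1d (y axes from 0 to 40) and the summed CPM of 12 neutrophil markers (last panel, own scale) against days post injury, with open circles for libraries, a line through the means and bars for the SD (n = 3). The A1 genes are high at 1 dpi, low at 2 and 4 dpi and higher again at 7 dpi, where the marker sum (43.7 to 53.6 CPM) is nearly all Csf3r.

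Promoters of 9 of the 10 genes were taken from RefSeq (GRCm38.p6, from upstream of to just past a start site). The set searched held no promoter of Pmaip1, so its motifs were not examined, and whether RefSeq lists one was not tested. The search was for 4 motifs on both strands. A TGANTCA match (AP-1) was present in the promoters of Bcl2a1b and Bcl2a1d, as in that of Bcl2a1a, and in 7.81% of all 32851 promoters. A GAGGAAGT match (PU.1) was found in Bcl2a1b, Bcl2a1d and Bak1 and in 3.2% of all promoters. A match to the NF-kappaB decamer (GGG, any pair of bases, TT, any base, CC) was present in Mcl1, Bcl2l1, Bcl2l11 and Bbc3 and in 4.79% of all, and a TGTTTAC match (FOXO) in Bcl2l11 and Bbc3 and in 3.65% of all. Bcl2l1 and Bbc3 had 3 promoters each and Bcl2l11 had 2, and a match in any of them was taken for the gene. The shares of all promoters are thus no like measure for these genes. No match of a motif overlapped with that of another motif in these genes, and the windows had 300 bases. The stretch with both matches in the A1 genes is shown because it is shared by the copies that fell together, with the TGANTCA and GAGGAAGT matches in capitals, for chr9:88956770-88956853 (plus strand), chr9:89199079-89199162 (plus strand) and chr9:88731917-88731994 (minus strand).
Bcl2a1a: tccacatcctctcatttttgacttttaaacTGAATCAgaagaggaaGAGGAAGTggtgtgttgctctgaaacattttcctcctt
Bcl2a1b: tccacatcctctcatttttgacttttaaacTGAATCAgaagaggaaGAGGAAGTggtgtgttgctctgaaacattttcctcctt
Bcl2a1d: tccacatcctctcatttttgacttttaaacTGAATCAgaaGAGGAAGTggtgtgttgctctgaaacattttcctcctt
The 84 bases of Bcl2a1a and Bcl2a1b were identical, and Bcl2a1d shared the 30 bases on each side, while the matches with the bases between them spanned 24 bases in Bcl2a1a and Bcl2a1b and 18 in Bcl2a1d. These matches are letters in a window, and no binding was measured in these libraries.

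Bax (ENSMUSG00000003873), which encodes an effector that moves from the cytosol to the mitochondrion, and Bak1 (ENSMUSG00000057789), which encodes the effector resident there, both ended lower than they began. Bax was at 42.9, 50.3 and 51.4 CPM at 1 dpi, 54.9, 45.7 and 50.6 at 2 dpi, 38.2, 19.6 and 18 at 4 dpi and 24.0, 11.6 and 20 at 7 dpi. Every library at 4 and 7 dpi was below every library at 1 and 2 dpi, with 4 dpi library 1 closest to them. Bax fell between 2 and 4 dpi (log2FC = -0.99, SE 0.28, FDR = 0.0194) and was lower at 7 than at 1 dpi (log2FC = -1.38, SE 0.28, FDR = 0.000763), the second being called in all 23 alternatives. The fall from 2 to 4 dpi was lost without 2 dpi library 1 (log2FC = -0.91, FDR = 0.0794) or 3 (-0.97, 0.0621) or 4 dpi library 2 (-0.84, 0.101) or 3 (-0.80, 0.112), with FDR from 3.62e-05 to 0.112 over the 23.

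Bak1 declined in smaller steps, from 42.5, 41.8 and 52.4 CPM at 1 dpi to 38.3, 33.6 and 38.8 at 2 dpi, 36.1, 27.2 and 29.7 at 4 dpi and 20.3, 11.3 and 24.6 at 7 dpi. The 7 dpi libraries lay below all others, and those at 2 and 4 dpi overlapped. Bak1 was lower at 7 than at 1 dpi (log2FC = -1.28, SE 0.24, FDR = 0.000321) in all 23 alternatives too. It fell between 4 and 7 dpi (log2FC = -0.72, SE 0.23, FDR = 0.0324), a call lost in 8 of the 23 alternatives, with FDR from 0.00793 to 0.291. These were the fit of the 6 libraries compared (FDR = 0.121), that without 4 dpi library 1 and 7 dpi library 2 together (0.291) and those without 1 dpi library 2 (0.0544), 2 dpi library 3 (0.0592), 4 dpi library 1 (0.109) or 3 (0.0571) or 7 dpi library 1 (0.0548) or 2 (0.12). Muscle, stromal and endothelial markers moved over the same interval, from a summed 118 to 216 CPM at 4 dpi to 418 to 717 CPM at 7 dpi, with none of the 11 at 0. Of the 11, 8 were called higher at 7 than at 4 dpi, against 10.9% of all genes tested. The part of these markers in the calls at 7 dpi was not tested.

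Of the BH3-only genes, Bcl2l11 and Pmaip1 fell early and Bbc3 rose late. Bcl2l11 (ENSMUSG00000027381) encodes BIM, which binds every prosurvival member. It was at 110, 83.0 and 80.2 CPM at 1 dpi, 45.8, 43.2 and 44.3 at 2 dpi, 52.4, 63.2 and 62.3 at 4 dpi and 72.4, 81.8 and 52.3 at 7 dpi. The 2 dpi libraries were below all 9 others, and those at 7 dpi overlapped with those at 1 and 4 dpi. Bcl2l11 fell between 1 and 2 dpi (log2FC = -1.03, SE 0.19, FDR = 0.00214) in all 23 alternatives. The later differences missed the threshold, at a log2FC of 0.42 (SE 0.19, FDR = 0.141) from 2 to 4 dpi and 0.22 (SE 0.19, FDR = 0.421) from 4 to 7 dpi. The former was called with the 6 libraries compared (log2FC = 0.45, FDR = 0.0266) and without 4 dpi library 1 and 7 dpi library 2 together (0.52, 0.0426), among FDR values up to 0.33. Its difference between 1 and 7 dpi (log2FC = -0.40, SE 0.19, FDR = 0.0912) passed the threshold without 7 dpi library 2 (-0.52, FDR = 0.0406) and without that library and 4 dpi library 1 together (-0.52, FDR = 0.0306), among FDR values up to 0.497.

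Pmaip1 (ENSMUSG00000024521) encodes NOXA, which binds MCL-1 and A1. Its libraries measured 54.5, 41.6 and 47.3 CPM at 1 dpi, 9.16, 16.3 and 12.3 at 2 dpi, 22.2, 33.5 and 34.1 at 4 dpi and 28.0, 44.9 and 55.3 at 7 dpi. The 2 dpi libraries were below all others, and the 7 dpi libraries overlapped with those at both 4 and 1 dpi. Pmaip1 fell between 1 and 2 dpi (log2FC = -1.92, SE 0.27, FDR = 0.000239) and rose between 2 and 4 dpi (log2FC = 1.25, SE 0.27, FDR = 0.00365), in all 23 alternatives. The difference between 1 and 7 dpi missed the threshold (log2FC = -0.16, SE 0.26, FDR = 0.631). A further rise from 4 to 7 dpi (log2FC = 0.52, SE 0.26, FDR = 0.149) was called only without 7 dpi library 1 (0.74, FDR = 0.0483), among FDR values up to 0.543.

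Bbc3 (ENSMUSG00000002083), the gene of the potent BH3-only protein PUMA, was the only one of the 3 called higher at 7 than at 1 dpi. It measured 3.14, 3.2 and 1.75 CPM at 1 dpi, 3.46, 3.88 and 3.01 at 2 dpi, 4.29, 7.37 and 4.61 at 4 dpi and 10.6, 9.52 and 9.84 at 7 dpi. The 7 dpi libraries were above all others, those at 4 dpi were above those at 2 dpi, and 1 and 2 dpi overlapped. Bbc3 was higher at 7 than at 1 dpi (log2FC = 1.89, SE 0.29, FDR = 7.32e-05), as in all 23 alternatives, and rose between 4 and 7 dpi (log2FC = 0.88, SE 0.28, FDR = 0.0292). The latter call was lost without 4 dpi library 1 (log2FC = 0.72, FDR = 0.125) or 3 (0.76, 0.109), without 7 dpi library 1 (0.84, 0.0732) or 2 (0.93, 0.0527) and without 4 dpi library 1 and 7 dpi library 2 together (0.79, 0.139), with FDR from 0.00723 to 0.139 over the 23. Heat shock genes rose over the same interval (Hspa1a log2FC = 2.93, SE 0.44, FDR = 0.000665, and Hspa1b log2FC = 3.25, SE 0.37, FDR = 0.00014), and their relation to Bbc3 was not tested.

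Counted by transition, 1 of the 10 genes rose and 4 fell between 1 and 2 dpi, where 6.89% of all genes tested were called up and 5.60% down. Between 2 and 4 dpi 1 rose and 3 fell, against 10.8% and 8.70% of all genes, and between 4 and 7 dpi 3 rose and 1 fell, against 10.9% and 14.6%. From 1 to 7 dpi 2 were higher and 5 lower, against 25.0% and 23.3%. With the study's stricter DEG rule, an absolute log2FC above 1 as well, the first transition had 1 gene up and 4 down (5.09% and 3.97% of all genes). The second had 1 up and 2 down (8.02% and 3.88%), the last had 2 up and 0 down (7.44% and 5.20%), and the whole course had 2 up and 3 down (19.7% and 14.0%). The median log2FC of the 10 genes was -0.49, -0.32, 0.45 and -0.61 in these 4 comparisons, and that of all genes tested was 0.01, 0.04, -0.03 and 0.16. The comparison of 1 with 7 dpi shares its libraries with the transitions and is no independent support for them.

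**Figure D3:**
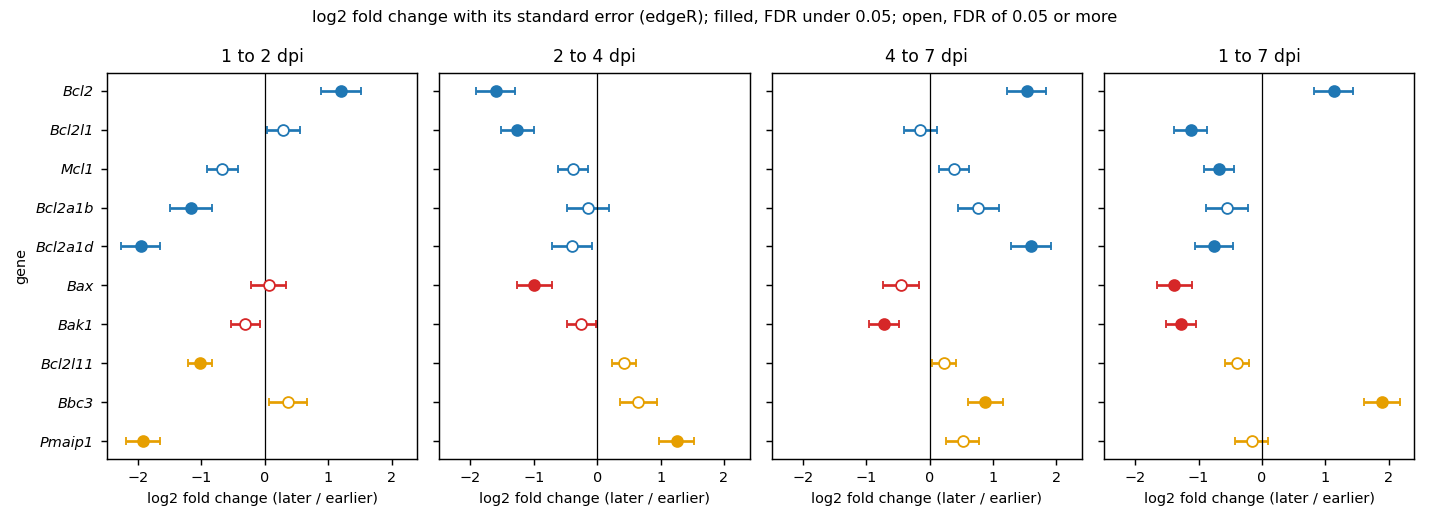
log2 fold change (x axis, later over earlier time point) of each of the 10 genes (y axis) in the 4 comparisons, with bars for the standard error from edgeR, filled points for an FDR under 0.05 and open points otherwise, in blue for prosurvival, red for effector and orange for BH3-only genes. Pmaip1 and Bcl2a1d lie furthest to the left from 1 to 2 dpi, near -1.92 and -1.96, and Bbc3 lies furthest to the right from 1 to 7 dpi, at 1.89.

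Ratios of levels per length put members with opposed roles side by side. They are given as descriptions, since 3 libraries against 3 cannot reach an exact permutation P under 0.1. Bax stood at 96.1, 63.6 and 56.3 times Bcl2 in the libraries at 1 dpi, 30.8, 29.5 and 30.4 times at 2 dpi, 52.4, 49.4 and 35.0 times at 4 dpi and 16, 5.37 and 17.9 times at 7 dpi. The libraries at 7 dpi were below all others for this ratio, and those at 2 dpi were below those at 1 and 4 dpi. The ratio of Bax to Bcl2l1 overlapped between all time points, with means from 0.922 ± 0.0732 at 2 dpi to 1.10 ± 0.210 at 4 dpi (SD, n = 3). Bcl2l1 relative to Mcl1 was highest at 2 dpi, at 0.302, 0.344 and 0.341, above every other library (0.0566 to 0.266).

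The 3 BH3-only genes summed to 0.133, 0.127 and 0.108 of the 5 prosurvival genes at 1 dpi, to 0.0649, 0.0917 and 0.0709 at 2 dpi, to 0.155, 0.221 and 0.202 at 4 dpi and to 0.133, 0.181 and 0.333 at 7 dpi. The 2 dpi libraries were below all others, the 4 dpi libraries were above those at 1 and 2 dpi, and at 7 dpi the range of the libraries took in all those at 4 dpi. Within the BH3-only sum, Pmaip1 had the largest share at 1 dpi (58.2% ± 2.89) and Bcl2l11 at 2 dpi (47.5% ± 6.32, against 38.7% ± 7.00 for Pmaip1, with overlapping libraries). The share of Bbc3 went from 4.24% ± 1.32 at 1 dpi to 16.6% ± 3.50 at 7 dpi. Transcript ratios say nothing of the proteins or of which are bound to each other.

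**Figure D4:**
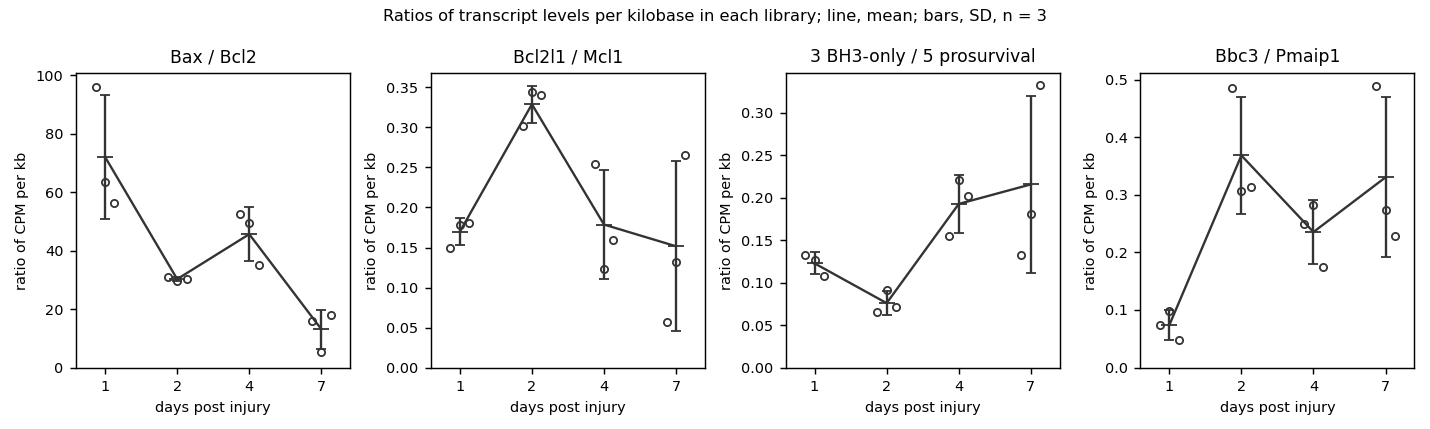
Ratios of levels per kilobase (y axes from 0) against days post injury for Bax over Bcl2, Bcl2l1 over Mcl1, the 3 BH3-only over the 5 prosurvival genes and Bbc3 over Pmaip1, with open circles for libraries, a line through the means and bars for the SD (n = 3). Bax over Bcl2 is lowest at 7 dpi (13.1 ± 6.74), Bcl2l1 over Mcl1 is highest at 2 dpi (0.329 ± 0.0232), and the BH3-only ratio is lowest at 2 dpi (0.0758 ± 0.0141).

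Across the 12 libraries, some of the 10 genes varied together in log2 CPM. The Pearson r was 0.93 between Bcl2a1b and Bcl2a1d, 0.88 between Bax and Bak1 and 0.81 between Mcl1 and Bcl2a1b. It was 0.80 between Bax and Bcl2l1 and 0.80 between Bcl2a1d and Bcl2l11. Bbc3 had an r of -0.88 with Bak1, -0.83 with Bax and -0.81 with Bcl2l1. These points share 4 time points and their library composition, and Bcl2a1b and Bcl2a1d also share sequence, so the values are descriptions. For Bcl2a1d the genes of most similar course were Nod2, an intracellular sensor of bacterial cell wall (r = 0.981), Nfkbie, an inhibitor of NF-kappaB (0.953), and Cacna1d (0.948). For Pmaip1 they were Gm45509 (0.920), Clec4a1 (0.908) and Angel2 (0.898), for Bbc3 Fer (0.961), Ppfibp2 (0.961) and Apoe (0.959), and for Bcl2 Rif1 (0.938), Frmd6 (0.925) and Dgkd (0.921).

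The other 16 BCL-2 family genes placed the 10 in context, and 10 of the 16 had enough counts to be tested. Bmf, a BH3-only gene, was at 1.57, 0.985 and 0.923 CPM at 1 dpi, 0.676, 1.10 and 1.00 at 2 dpi, 3.69, 12.0 and 7.81 at 4 dpi and 13.7, 11.3 and 12.9 at 7 dpi. The libraries at 4 and 7 dpi were all above those at 1 and 2 dpi, and Bmf rose between 2 and 4 dpi (log2FC = 3.08, SE 0.39, FDR = 6.26e-05) and was higher at 7 than at 1 dpi (log2FC = 3.48, SE 0.39, FDR = 4.09e-06), like Bbc3 in the second comparison. Bnip3, a mitophagy receptor, fell between 4 and 7 dpi (log2FC = -1.81, SE 0.42, FDR = 0.00708) and between 1 and 2 dpi (log2FC = -1.30, SE 0.42, FDR = 0.0498), where 1 dpi library 1 stood apart at 112 CPM against 34.0 and 35.9. Its relative Bnip3l rose between 2 and 4 dpi (log2FC = 1.11, SE 0.26, FDR = 0.00712). Bid, which carries death receptor signals to the mitochondrion, fell between 2 and 4 dpi (log2FC = -0.80, SE 0.27, FDR = 0.0485), the prosurvival gene Bcl2l2 rose between 4 and 7 dpi (log2FC = 1.00, SE 0.31, FDR = 0.0295), and Bcl2l13 was lower at 7 than at 1 dpi (log2FC = -0.88, SE 0.19, FDR = 0.00105). Bid and Bcl2l13 overlap on opposite strands and the libraries are unstranded, so reads from the shared exons cannot be told apart. Bad, Bok and Bcl2l12 passed in none of the 4 comparisons. Bcl2l10 had 0 counts, and Bcl2a1c, Hrk, Bik, Bcl2l14 and Bcl2l15 had at most 18 counts over the 3 libraries of any time point.

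Genes of pathways around the family were counted as lists, to be read against the shares of all genes called. These shares were 6.89% up and 5.60% down in the first transition and 10.8% up and 8.70% down in the second. They were 10.9% up and 14.6% down in the last, and 25.0% up and 23.3% down over the whole course. Of 12 genes of NF-kappaB and its survival targets, 9 fell and 0 rose between 1 and 2 dpi, the interval in which Bcl2a1b and Bcl2a1d fell, with a median log2FC of -1.01 against 0.01 over all genes. They included Traf1, an adaptor of TNF receptors (log2FC = -1.85, SE 0.27, FDR = 0.00031), Ier3 (log2FC = -1.51, SE 0.26, FDR = 0.00138) and the inhibitor gene Nfkbie (log2FC = -1.15, SE 0.20, FDR = 0.00138). From 4 to 7 dpi 6 rose and 2 fell, among them Cflar, the brake on caspase-8 (log2FC = 1.14, SE 0.21, FDR = 0.00192), Gadd45b (log2FC = 1.5, SE 0.27, FDR = 0.00176) and Nfkbie (log2FC = 1.08, SE 0.20, FDR = 0.00198). Nfkbia (log2FC = -0.81, SE 0.26, FDR = 0.0337) and Ier3 (log2FC = -1.07, SE 0.26, FDR = 0.00881) were the 2 that fell. Cflar and Birc3 are also counted in the list of the inhibitor of apoptosis family and Cflar.

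Of 14 genes of survival cytokine signalling, 9 fell and 0 rose between 1 and 2 dpi (median log2FC = -0.76). The kinase gene Pim3 (log2FC = -1.51, SE 0.18, FDR = 7.71e-05), the GM-CSF receptor gene Csf2rb (log2FC = -1.42, SE 0.20, FDR = 0.000217) and the G-CSF receptor gene Csf3r (log2FC = -1.04, SE 0.21, FDR = 0.00305) had the smallest P values among them. Csf2rb (log2FC = 1.16, SE 0.19, FDR = 0.000659), Csf3r (log2FC = 1.18, SE 0.21, FDR = 0.000879) and the CSF1 receptor gene Csf1r (log2FC = 0.94, SE 0.21, FDR = 0.00465) rose between 2 and 4 dpi. Csf3r is also among the neutrophil markers given above. In this list 0 genes passed the threshold in either direction from 4 to 7 dpi, when Bcl2, Bcl2a1d and Bbc3 rose.

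Among 8 genes listed as inducers of BH3-only genes, 4 were higher and 2 lower at 7 than at 1 dpi. Over all genes 25.0% were higher and 23.3% lower, so the share of lower genes was near that of all genes. Whether each gene of this list, such as Txnip, induces a BH3-only gene was not tested. Txnip (log2FC = 2.03, SE 0.33, FDR = 0.000103) and the cell cycle factor E2f1 (log2FC = 1.45, SE 0.20, FDR = 2.96e-05) were among the higher and the stress factor Atf4 (log2FC = -2.04, SE 0.21, FDR = 1.77e-06) among the lower. From 4 to 7 dpi, when Bbc3 rose, Txnip (log2FC = 1.44, SE 0.32, FDR = 0.00527), Foxo1 (log2FC = 1.29, SE 0.29, FDR = 0.00565) and Ddit3, the gene of the stress factor CHOP (log2FC = 1.31, SE 0.37, FDR = 0.0177), rose. Of the 14 genes of p53 and its targets, 12 could be tested, and 2 were higher and 6 lower at 7 than at 1 dpi, against the same 25.0% and 23.3%. They included the cell cycle inhibitor Cdkn1a (log2FC = -2.24, SE 0.22, FDR = 1.02e-06) in the direction opposite to Bbc3 and Trp53inp1 (log2FC = 2.43, SE 0.22, FDR = 4.99e-07) in the same direction.

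Of 11 genes of the outer membrane and of MCL-1 turnover, 7 fell and 1 rose between 4 and 7 dpi (median log2FC = -0.68), including the fission gene Dnm1l (log2FC = -1.37, SE 0.26, FDR = 0.00234), the channel gene Vdac1 (log2FC = -1.11, SE 0.22, FDR = 0.00298) and Tpt1 (log2FC = -1.02, SE 0.19, FDR = 0.00209). In the same interval Bak1 fell and Bax missed the threshold (log2FC = -0.45, SE 0.28, FDR = 0.24). Of 14 genes of the apoptosome and the caspases, 1 was higher and 4 lower at 7 than at 1 dpi, the share of lower genes being near the 23.3% of all genes and that of higher genes below the 25.0%. The cytochrome c gene Cycs was lower (log2FC = -1.80, SE 0.26, FDR = 3.42e-05) and Casp2 higher (log2FC = 1.58, SE 0.23, FDR = 3.70e-05). Of 10 genes, those of the inhibitor of apoptosis family by name and the caspase-8 brake Cflar, 6 rose and 1 fell between 2 and 4 dpi. The 6 were Birc2, Birc3, Birc5, Naip2, Naip5 and Naip6. A place in this list by family name does not show that the gene restrains apoptosis. Birc5 (survivin), which serves in cell division as well, had the largest values of this list (log2FC = 4.55, SE 0.82, FDR = 0.00168 from 1 to 2 dpi and 3.23, SE 0.51, FDR = 0.000382 from 2 to 4 dpi), and Naip5 (log2FC = 1.24, SE 0.27, FDR = 0.00378) and Naip6 (log2FC = 1.07, SE 0.27, FDR = 0.0118) rose between 2 and 4 dpi.

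**Figure D5:**
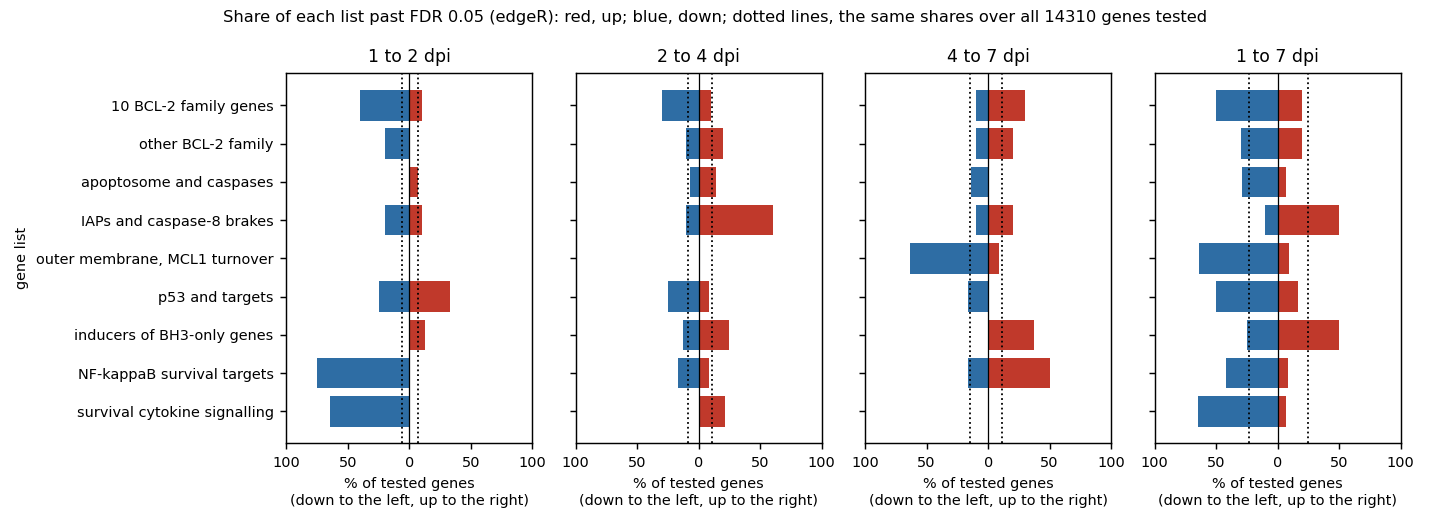
Percent of the tested genes of each list (y axis) that were called down (blue, to the left) or up (red, to the right) at an FDR under 0.05 in the 4 comparisons, with dotted lines at the shares over all 14310 genes tested. Among the 9 lists drawn, the NF-kappaB and survival cytokine lists reach furthest to the left from 1 to 2 dpi (9 of 12 and 9 of 14 genes), and the outer membrane list does so from 4 to 7 dpi (7 of 11).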

How the data were processed

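Macrophage RNA was made into Smart-seq2/3 libraries, which do not mark strand, and sequenced as read pairs. Trim Galore 0.6.6, HISAT2 2.2.1 (on GRCm39) and featureCounts of Subread 2.0.1 were the tools by which the authors went from reads to counts. Raw counts for each Ensembl gene were deposited, and the annotation release and the strand and pair settings are not given in the sources used here. Of counts from 1 to 20, a median of 83.1% per library were even, so mates may have been counted singly and small counts may overstate the fragments.

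Counts were analysed with edgeR 4.0.16 in R 4.3.3. Genes passing filterByExpr (14310) were scaled by TMM and fitted with a coefficient per time point over all 12 libraries (glmQLFit, glmQLFTest). P values were adjusted by Benjamini-Hochberg over all genes tested within each comparison. Genes with an FDR under 0.05 were called, and DEGs as in the study's rule also had an absolute log2FC above 1. Symbols, exonic lengths and transcripts came from GENCODE M21 and promoters from RefSeq, both GRCm38, joined by gene ID or symbol, and coordinates belong to that build only. Symbols were paired with 52081 of the 55414 IDs.

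The 10 genes and the lists were chosen with earlier results of these data known. The genes named were all 26 family genes, marker genes whose list moved with a member (those given with values being chosen after their values were seen), up to 3 genes of smallest P among those called per list and comparison, and the 3 genes of highest Pearson r for each of the 4 members with the widest range of time point means. Nfkbia and Ier3 from 4 to 7 dpi and the heat shock genes were chosen after their values were seen. Alternatives were RLE size factors, other filters, DESeq2 1.42.0, limma-voom (limma 3.58.1), the 6 libraries compared, a replicate block, each library left out, Bcl2a1 genes summed, the unnamed and mitochondrial genes left out, counts halved and the DEG rule. For the BH3-only ratio and the Mcl1 share, CPM without division by length was an alternative as well. Leaving out 4 dpi library 1 and 7 dpi library 2 together was added after seeing the data. For the pairing, deviations from group means of same-numbered libraries were correlated.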

Additional observations from a re-analysis of the deposited data

How the results depend on the processing

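Leaving out each library in turn gave 0 to 1 of the 10 genes higher and 3 to 5 lower from 1 to 2 dpi, 1 to 1 higher and 2 to 3 lower from 2 to 4 dpi, 2 to 5 higher and 0 to 1 lower from 4 to 7 dpi, and 2 to 2 higher and 3 to 6 lower from 1 to 7 dpi, with 9 to 10 differing over the 4 time points. From 2 to 4 dpi 2 genes were higher with the 6 libraries compared and without 4 dpi library 1 and 7 dpi library 2 together. From 4 to 7 dpi 0 were lower under both of these and under the DEG rule, and from 1 to 7 dpi 3 were lower with RLE size factors, the 6 libraries compared, counts halved and the DEG rule. Apart from fewer samples or a stricter rule, the cause was not tested.

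Signs turned in none of the called results of the 10 genes but in these that were not called. Bcl2l1 from 4 to 7 dpi had a log2FC of 0.15 without 4 dpi library 1, 0.11 without 7 dpi library 1 (range -0.37 to 0.15 over libraries left out) and 0.06 without 4 dpi library 1 and 7 dpi library 2 together. Bcl2a1b from 2 to 4 dpi had 0.13 without 4 dpi library 1 (range -0.52 to 0.13) and 0.15 without that pair, and Bax from 4 to 7 dpi had 0.24 without that pair. Bax from 1 to 2 dpi had -0.0017 without 1 dpi library 1 and -0.0046 without 2 dpi library 1, and Pmaip1 from 1 to 7 dpi had 0.01 without 1 dpi library 1 and 0.08 without 7 dpi library 1 (range -0.38 to 0.08).

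Of 18 pairs of same-numbered libraries 1 had a correlation of deviations over 0.1 (range -0.133 to 0.127). Pairs with different numbers ranged more widely, from -0.221 to 0.265, so the check cannot decide if equal numbers mark a shared batch. With the replicate block, 4 genes were lower from 1 to 7 dpi, since the call of Bcl2a1d was lost (log2FC = -0.76, FDR = 0.0507), and no other call of the 10 genes changed. Low counts limit Bcl2 and Bbc3, with as few as 33 and 38 counts in a library.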
